A study of Mus musculus with 12 samples.

Results

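Tendon and myotendinous genes were followed in mouse gastrocnemius muscle as 7 members, Scx, Tnmd, Mkx, Kera, Fmod, Comp and Thbs4, of the 37748 genes in the count table. The members were chosen by name, and partly by their measured values: the rule named tenocyte genes and stated that Scx was low at the lower tamoxifen dose and high at the higher dose. All values of the members in the comparisons of the moderate and severe groups are therefore given as a description, without a test. All 7 members passed the filter on low counts, as did 16679 genes in all.

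The study modelled facioscapulohumeral muscular dystrophy by expressing human DUX4 in mouse skeletal muscle, and sequenced poly(A) RNA from the gastrocnemius of mice aged 13 weeks, of which 12, 3 in each of 4 groups, were used here. Control mice were ACTA1-MCM/+, carrying tamoxifen-inducible MerCreMer under the skeletal actin promoter, and received no tamoxifen by their labels, whereas the study's table of models lists such controls with tamoxifen. FLExD/+ mice carried the invertible DUX4 transgene (FLExDUX4/+) without MerCreMer and received no tamoxifen. The moderate and severe groups were both bi-transgenic (FLExDUX4/+;MCM/+), and differed in tamoxifen. Moderate mice had 1 intraperitoneal injection of 5 mg/kg, and severe mice had 2 injections of 10 mg/kg on consecutive days. Muscle was taken on day 9, counted in the study from the first injection for severe mice. The FLExD/+ mice were also labelled as having mild pathology, although they lacked the recombinase. The study also describes libraries of bi-transgenic mice without tamoxifen, which are not labelled as such among these samples. By the labels none of the groups used as controls here had both transgenes or tamoxifen, and on that reading the effects of DUX4, of tamoxifen and of carrying both transgenes cannot be told apart. The recombinase is driven in muscle fibers, and tendon cells were not separated from muscle before RNA extraction. Library totals ranged from 23796902 counts in severe mouse 1047 to 29136403 in control mouse 1349.

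Tendons join muscle to bone, and their resident fibroblasts, tenocytes, lay down parallel fibrils of type I collagen. Scleraxis (Scx) is the transcription factor that marks tendon progenitors and tenocytes, Mohawk (Mkx) is a homeobox factor needed for collagen fibril growth, and tenomodulin (Tnmd) is a membrane protein of mature tenocytes that depends on Scx. Fibromodulin (Fmod) and keratocan (Kera) are small leucine-rich proteoglycans that bind collagen, and cartilage oligomeric matrix protein (Comp) and thrombospondin 4 (Thbs4) are pentameric thrombospondins of the matrix, the latter also found at the myotendinous junction, where fibers end on tendon.

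The labels were checked against genes outside the list. Esr1, whose sequence is also part of the MerCreMer transgene, was at 715, 422 and 819 CPM in the controls and at 29.7, 27.5 and 37.9 CPM in the FLExD/+ mice. It was at 95.9 to 124 CPM in moderate and at 35.2 to 37.4 CPM in severe mice, so that severe and FLExD/+ mice overlapped. In TPM, Esr1 was at 4.87 to 8.78 in FLExD/+, at 74.7 to 97.3 in moderate and at 38.6 to 45.1 in severe mice. Every bi-transgenic mouse lay above every FLExD/+ mouse in TPM, but not in TMM-adjusted CPM. Wfdc3, a target of full-length DUX4, was at 0.142 to 0.385 CPM in the controls, at 0.0496 to 0.386 in FLExD/+, at 68.0 to 91.8 in moderate and at 62.6 to 116 in severe mice. The adult muscle fiber genes, with Myh4 the most abundant, summed to 198000 ± 29300 CPM (SD, n = 3) in the controls. Since Tnmd is on the X chromosome, sex was checked too: Xist was at 128 to 379 CPM in all 12 mice, and the Y-linked gene Ddx3y did not exceed 1.01 counts in any.

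FLExD/+ and control mice had no member that was called different. The rule for the members did not name this comparison, but the members were chosen with earlier results of these data known. None of the 7 was called by edgeR's quasi-likelihood test, in which a call needed a Benjamini-Hochberg adjusted p under 0.05 and a log2 difference of 0.5 or more either way, beside 0.006% of all genes tested, and 0 had an unadjusted p under 0.05. DESeq2 and limma also called 0 of the 7. The log2 fold changes ranged from -0.37 ± 0.40 (SE, n = 3 and 3) for Fmod to 0.88 ± 0.55 for Kera, each with an edgeR adjusted p of 1, and the groups overlapped in all 7 members. Both ends of that range depended on 1 mouse: Fmod was at 0.00 without control mouse 1349 and at -0.87 without FLExD/+ mouse 1378, and Kera at 0.43 without control mouse 1127 and at 1.2 without control mouse 1246. The 1 gene called was Esr1, lower in FLExD/+ by -4.36 ± 0.23 on the log2 scale (edgeR adjusted p = 1.2e-06). That call ended with only the 2 groups compared, where 0 genes were called. The precision was low for the members, since control mouse 1127 had 0.881 CPM of Mkx against 3.56 in mouse 1349, and 1.30 CPM of Kera against 7.32 in mouse 1246.

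Scx was the member that lay on opposite sides of the controls at the 2 doses. Its level was 4.87, 5.35 and 7.44 CPM in control mice 1127, 1246 and 1349, and 7.82, 6.25 and 5.74 CPM in FLExD/+ mice 1358, 1367 and 1378. It was 3.91, 3.45 and 2.38 CPM in moderate mice 1236, 1308 and 1331, and 11.4, 8.61 and 9.71 CPM in severe mice 1047, 1066 and 1079. Every moderate mouse lay below, and every severe mouse above, all 6 mice without tamoxifen. Against the controls the log2 fold change was -0.86 ± 0.21 (SE) in moderate and 0.75 ± 0.19 in severe mice, and severe exceeded moderate by 1.61 ± 0.20, or by 2.31 with library size alone. The CPM values use library sizes adjusted by the trimmed mean of M values (TMM). In TPM, which carry no such adjustment, Scx was at 4.8, 5.32 and 7.74 in the controls and at 5.35, 5.15 and 3.28 in moderate mice, so that these groups overlapped, while severe mice at 27.6, 21.1 and 20.3 stayed above all others. In whole muscle, a change in the number of tendon cells and a change in RNA per cell cannot be told apart.

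Scx (ENSMUSG00000034161) lies on chromosome 15 from 76457452 to 76459458 on the plus strand of GRCm38. It sits wholly inside Bop1, a ribosome biogenesis gene on the minus strand that runs from 76452989 to 76477277, and shares 0 exon bases with it. The sources used here do not state that the counting used strand, so reads from Bop1 introns could not be told apart from Scx reads. Bop1 itself was at 18.6 to 20.9 CPM in controls, 19.0 to 22.2 in moderate and 21.6 to 22.4 in severe mice, a log2 fold change of 0.05 ± 0.09 in moderate (edgeR adjusted p = 0.69) and of 0.18 ± 0.09 in severe mice (edgeR adjusted p = 0.0804). In TPM, Bop1 was at 7.32 ± 0.699 in controls, 10.5 ± 0.795 in moderate and 19.2 ± 1.94 in severe mice (SD, n = 3). The ratio of Scx to Bop1 in TPM was 0.703 to 0.953 in controls, 0.338 to 0.484 in moderate and 1.03 to 1.37 in severe mice. These ranges did not overlap, and a ratio within a library needs no scaling between libraries. The ratio does not show which gene moved. In TPM, moderate Scx (3.28 to 5.35) overlapped with the controls (4.8 to 7.74), while Bop1 was higher in moderate mice. Since the choice of members used this pattern of Scx, the ratio is a description and not a test of it.

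Mkx, the other transcription factor, was the scarcest member in every group. It was at 0.881, 2.70 and 3.56 CPM in the controls, 2.12, 1.39 and 2.89 CPM in FLExD/+, 0.789, 1.86 and 1.34 CPM in moderate and 0.924, 0.873 and 0.749 CPM in severe mice. Control mouse 1127 lay among the severe mice, so the groups overlapped. The log2 fold change was -0.85 ± 0.43 in moderate and -1.49 ± 0.43 in severe mice, the latter -0.19 with library size alone. The moderate value was -0.26 with library size alone and -0.07 with limma on TPM, -1.27 without control mouse 1127, -0.48 without control mouse 1349 and -0.58 without moderate mouse 1236. Some Mkx counts were not whole numbers (17 to 74.8 in the controls), for a reason that was not tested. A second transcript, annotated in GENCODE M21 on the same strand of chromosome 18, shares 201 of the 4095 exon bases of Mkx. It has no entry of its own in the count table, so the counts do not set reads of the 2 apart there.

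Tnmd, the marker of mature tenocytes, was lowest in the severe group. Its CPM were 2.80, 7.28 and 10.0 in the controls, 9.30, 9.17 and 10.0 in FLExD/+, 4.39, 8.48 and 5.78 in moderate, and 3.36, 2.64 and 3.02 in severe mice. The severe mice lay below all moderate and FLExD/+ mice, whereas control mouse 1127 lay within their range. The log2 fold change was -0.12 ± 0.35 in moderate and -1.16 ± 0.36 in severe mice, but 0.48 and 0.14 with library size alone, the opposite direction. The moderate value was -0.51 without control mouse 1127 and 0.26, the opposite direction, without mouse 1349. The severe value was -0.77 without control mouse 1349 and -1.53 without mouse 1127. In TPM the severe mice, at 5.10 ± 0.723 (SD, n = 3), and the controls, at 4.95 ± 2.78, lay within their spread.

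The proteoglycans Fmod and Kera were also low in severe muscle in TMM-adjusted CPM. Fmod was at 26.2, 35.3 and 58.1 CPM in the controls, 25.2, 18.6 and 48.4 in FLExD/+, 18.3, 33.2 and 27.5 in moderate and 13.8, 12.5 and 9.90 in severe mice. Every severe mouse lay below the other 9 mice for Fmod on this scale, but in TPM the severe mice, at 21.2, 19.4 and 13.3, overlapped with the controls, at 16.3, 22.6 and 38.2. Kera was at 1.30, 7.32 and 6.97 CPM in the controls, 14.4, 8.38 and 6.12 in FLExD/+, 2.11, 4.93 and 2.12 in moderate and 0.879, 1.44 and 1.09 in severe mice. For Kera only control mouse 1127 reached into the severe range. The log2 fold changes in moderate and severe mice were -0.60 ± 0.40 and -1.72 ± 0.41 for Fmod, and -0.78 ± 0.58 and -2.20 ± 0.62 for Kera. The severe values were -0.42 for Fmod and -0.91 for Kera with library size alone. The moderate value of Fmod was -0.25 without control mouse 1349, and that of Kera was -1.30 without moderate mouse 1308 and -0.49 without control mouse 1246.

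The pentameric thrombospondins parted. Thbs4 was at 61.7, 65.1 and 126 CPM in the controls, 51.1, 43.8 and 108 in FLExD/+, 203, 242 and 221 in moderate and 397, 321 and 324 in severe mice. No moderate or severe mouse overlapped with the mice without tamoxifen, and the severe mice lay above the moderate mice. The log2 fold change was 1.40 ± 0.35 in moderate and 2.04 ± 0.36 in severe mice, a difference of 0.65 ± 0.34, or of 1.35 with library size alone. Comp was at 11.7, 10.5 and 21.5 CPM in the controls, 10.9, 7.88 and 26.7 in FLExD/+, 8.49, 13.3 and 12.6 in moderate and 10.6, 12.7 and 12.01 in severe mice. All 4 groups overlapped for Comp in CPM. In TPM severe mice, at 9.6, 11.57 and 9.36, lay above controls, at 3.9 to 8.28, and moderate mice, at 4.33 to 7.42. FLExD/+ mouse 1378, at 11.04 TPM, lay within the severe range. The log2 differences in CPM depended on scaling and on 1 mouse, with log2 fold changes of -0.35 ± 0.44 in moderate and -0.31 ± 0.43 in severe mice, but of 0.25 and 0.99, the opposite direction, with library size alone, and of 0.02 and 0.07 without control mouse 1349.

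Promoter sequence is shown for 3 members: Thbs4, which was high, and Fmod and Tnmd, which were low in severe muscle in TMM-adjusted CPM. Kera was lower still, with a log2 fold change of -2.2 in severe mice, and its promoter was searched but is not printed. The RefSeq promoter table of GRCm38.p6 held 4 of the 7 members, Tnmd, Kera, Fmod and Thbs4. The start sites used below are those of RefSeq. For Tnmd and Kera they differ from GENCODE M21, in which these genes start at 133850980 and 97606879. By the GENCODE positions the Tnmd window ends inside the gene, and the Kera window (97606955 to 97607204) lies wholly inside Kera. The 250 bases before the start site are given 5′ to 3′ on the gene's strand, with E-boxes, the motif that scleraxis and other basic helix-loop-helix factors bind, in capitals:
Thbs4 (chr13:92794819-92795068, minus strand): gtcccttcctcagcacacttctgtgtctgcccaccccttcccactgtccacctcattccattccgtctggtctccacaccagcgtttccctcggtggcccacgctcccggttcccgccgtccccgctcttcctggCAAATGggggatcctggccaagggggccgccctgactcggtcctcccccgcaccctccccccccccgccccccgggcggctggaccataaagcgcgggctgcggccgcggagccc
Fmod (chr1:134037004-134037253, plus strand): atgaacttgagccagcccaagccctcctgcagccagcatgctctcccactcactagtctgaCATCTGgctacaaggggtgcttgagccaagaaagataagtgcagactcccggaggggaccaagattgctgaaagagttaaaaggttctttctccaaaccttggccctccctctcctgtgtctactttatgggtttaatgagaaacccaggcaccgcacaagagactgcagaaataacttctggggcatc
Tnmd (chrX:133850758-133851007, plus strand): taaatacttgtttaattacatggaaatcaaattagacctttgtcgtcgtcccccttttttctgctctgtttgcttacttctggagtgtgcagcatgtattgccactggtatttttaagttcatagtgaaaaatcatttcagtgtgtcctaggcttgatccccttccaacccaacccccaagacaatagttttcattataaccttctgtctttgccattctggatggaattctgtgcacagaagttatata
The motif CANNTG was searched on both strands, with overlapping matches counted. Thbs4 had 1 match, beginning 115 bases before the start, and Fmod had 1, beginning 189 bases before it, and Tnmd and Kera had 0, while 66.2% of all 32851 promoters of this length held at least 1. The AP-1 motif TGANTCA, held by 6.75% of promoters, and the TATA box TATAAA, held by 12.4%, had 0 matches in all 4. A match is a description of the letters in this window only.

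**Figure D1:**
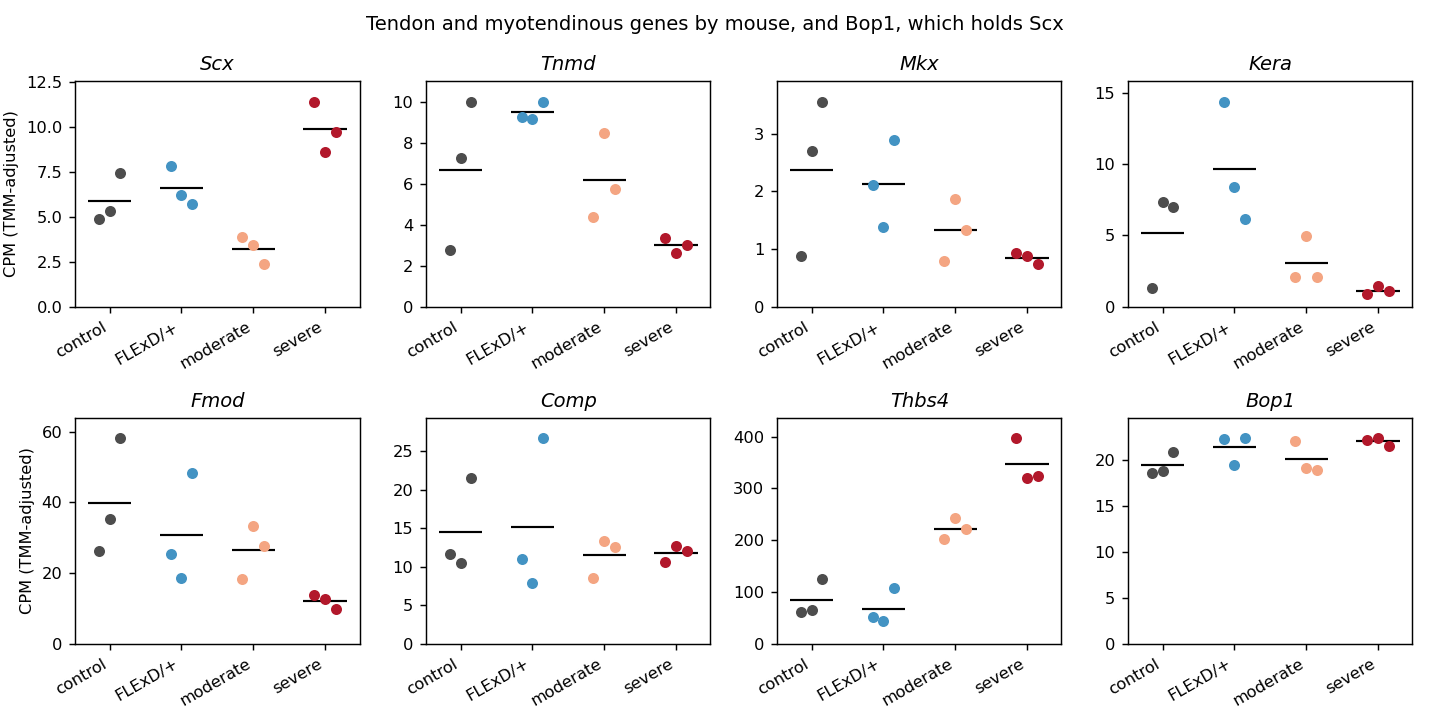
TMM-adjusted CPM of the 7 members and of Bop1, the gene that holds Scx, in each of the 12 mice (points) with the group mean (line). Scx in severe mice (8.61 to 11.4 CPM) lies above, and in moderate mice (2.38 to 3.91 CPM) below, the controls (4.87 to 7.44 CPM); in TPM the moderate and control mice overlap.

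In TMM-adjusted CPM, 2 of 7 members did not overlap between moderate and control mice, Scx below and Thbs4 above, where 41.4% of all genes tested were called by edgeR (24.4% higher and 17% lower). Between severe and control mice 3 of 7 did not overlap, Scx and Thbs4 above and Fmod below, where 60.7% of all genes were called (32.9% higher and 27.9% lower). Between severe and moderate mice 5 of 7 did not overlap, Scx and Thbs4 above and Tnmd, Kera and Fmod below, where 36.5% of all genes were called. In TPM, Tnmd, Kera and Fmod overlapped between severe and moderate mice. A lack of overlap and a call are different measures, and nothing is read from these counts, since the members were chosen with these comparisons known.

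The sign of several values depended on the scaling between libraries. TMM factors were 0.706 to 0.76 in control and FLExD/+ mice, 1.06 to 1.13 in moderate and 1.69 to 1.87 in severe mice. With library size alone, the median log2 fold change of all genes moved from 0.04 to 0.65 in moderate and from 0.08 to 1.39 in severe mice, and with limma on log2(TPM + 1) to 0.29 and 0.79. The share of called genes that were higher moved with it, from 59% to 92.1% in moderate and from 54.1% to 92.2% in severe mice with library size alone. On that scale Tnmd was at 0.14, Mkx at -0.19, Fmod at -0.42 and Kera at -0.91 in severe mice, while Scx was at 2.06 and Thbs4 at 3.35. Relative to the median of all genes, the severe values with library size alone were -1.24 for Tnmd, -1.58 for Mkx, -1.80 for Fmod, -2.29 for Kera, -0.39 for Comp, 0.67 for Scx and 1.96 for Thbs4. Since the scalings differ by nearly the same shift for every gene, these relative values match those with TMM factors by construction, and say nothing of which scaling holds. Scx in moderate mice was at -0.25 ± 0.22 with library size alone, and at -0.90 relative to the median of all genes. Thbs4 was positive in both groups on every scale.

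**Figure D2:**
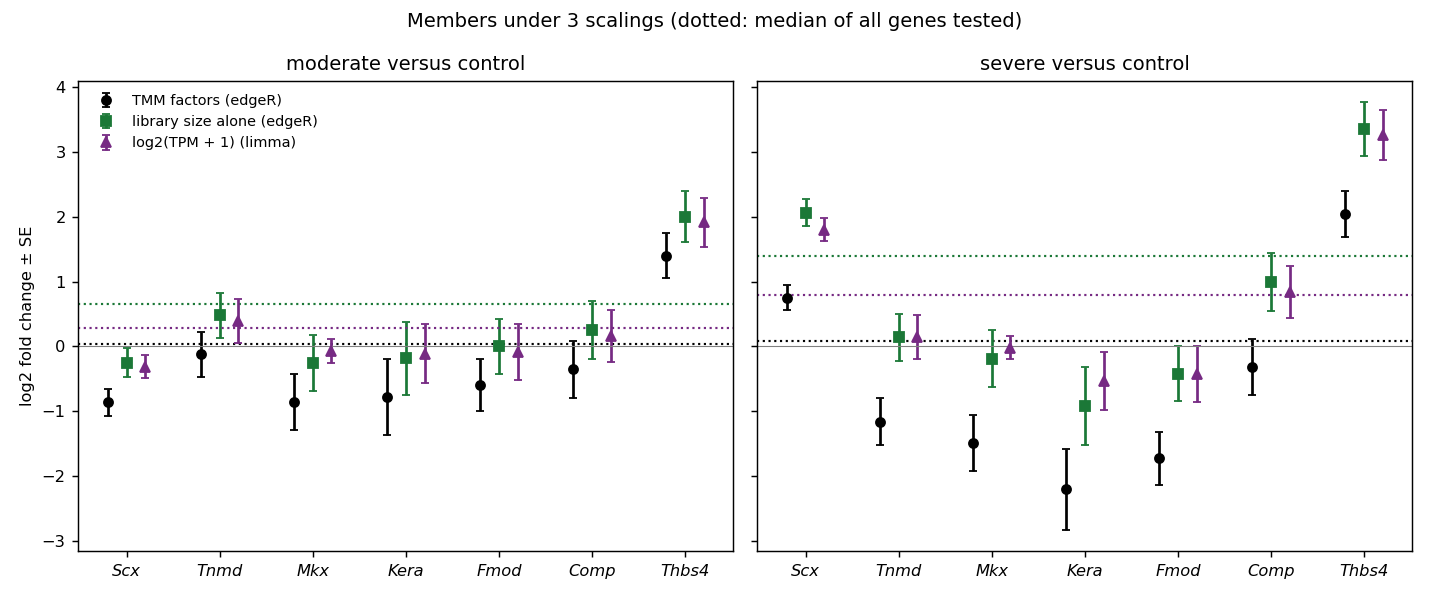
Log2 fold change (± SE) of each member against control under TMM factors, library size alone and log2(TPM + 1), with the median of all genes tested as a dotted line in the same color. In severe mice Tnmd lies at -1.16 with TMM factors and at 0.14 with library size alone, and below the median of all genes on all 3 scales.

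Ratios between members of the same library avoid this choice. The ratio of Scx to Tnmd in TPM was 2.36, 1.01 and 1.02 in the controls, 1.16, 0.937 and 0.788 in FLExD/+, 1.23, 0.562 and 0.57 in moderate and 4.65, 4.45 and 4.39 in severe mice. The severe mice lay above all others, and the moderate mice overlapped with the controls. The ratio of Thbs4 to Tnmd was 3.43 to 8.33 in the controls, 1.83 to 4.11 in FLExD/+, 10.9 to 17.7 in moderate and 41.0 to 46.3 in severe mice, with no overlap between the moderate, the severe and the other mice. The ratio of Thbs4 to Comp was 3.94 to 4.62 in the controls, 13.1 to 17.8 in moderate and 18.9 to 27.9 in severe mice. The ratio of Fmod to Tnmd was 4.29 to 8.02 in the controls, 1.78 to 4.21 in FLExD/+, 3.41 to 4.14 in moderate and 2.87 to 4.10 in severe mice, so that the controls lay above the other 3 groups, which overlapped. The ratio of Mkx to Tnmd was 0.156 to 0.182 in the controls, 0.0789 to 0.123 in FLExD/+, 0.0974 to 0.121 in moderate and 0.110 to 0.184 in severe mice. The FLExD/+ and moderate mice lay below the controls, and the severe mice overlapped with all other groups. A ratio shows unequal levels of its members, not which of them moved.

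**Figure D3:**
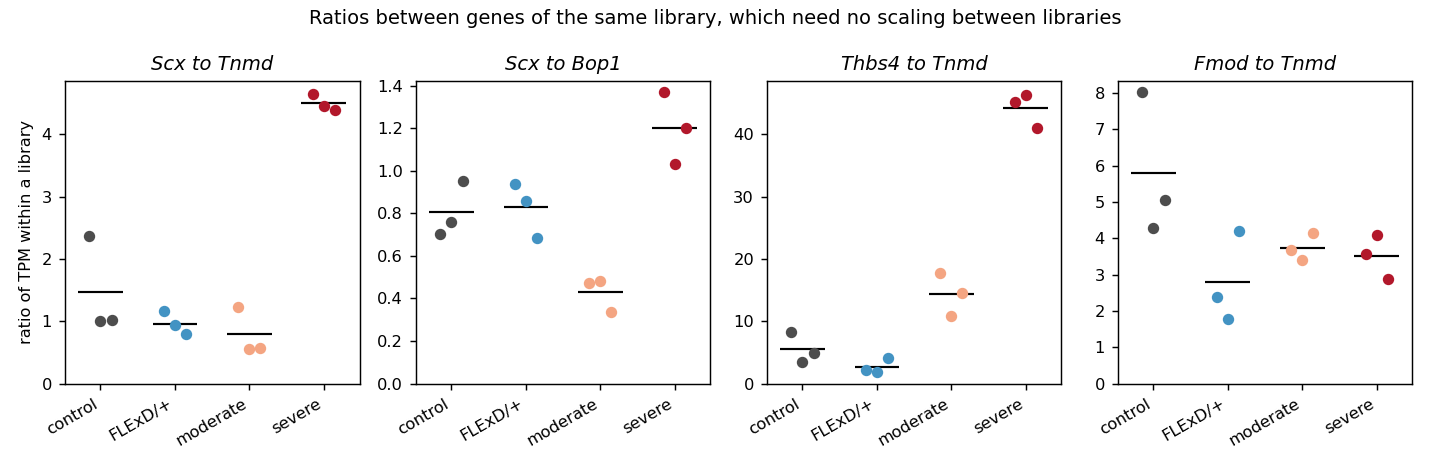
Ratios of TPM between genes of the same library in each of the 12 mice (points) with the group mean (line). The ratio of Scx to Tnmd is 4.39 to 4.65 in severe mice and no more than 2.36 in the others.

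On the scale of TPM, which is per transcript length, the order of the members differed by group. In the controls Fmod was highest at 25.7 ± 11.3 TPM (SD, n = 3), followed by Thbs4 at 23.79 ± 10.95, which did not differ beyond their spread. Scx at 5.95 ± 1.57, Comp at 5.49 ± 2.42, Tnmd at 4.95 ± 2.78 and Kera at 3.52 ± 2.29 followed within their spread, and Mkx was last at 0.797 ± 0.416. The FLExD/+ mice had the same leading pair, at 20.1 ± 12.4 for Fmod and 19.4 ± 12.2 for Thbs4. In moderate mice Thbs4 led at 87.1 ± 11.8, Fmod was at 23.7 ± 7.61, and Tnmd at 6.42 ± 2.47, Comp at 6.06 ± 1.58 and Scx at 4.59 ± 1.14 did not differ beyond their spread. In severe mice Thbs4 reached 226 ± 39.6 TPM, Scx was next at 23.0 ± 3.99, within the spread of Fmod at 18.0 ± 4.15, and Comp followed at 10.2 ± 1.21. Kera at 1.79 ± 0.511 and Mkx at 0.743 ± 0.202 were lowest. Thbs4 made up 33.9% ± 3.83 of the members' summed TPM in the controls, 66.7% ± 3.72 in moderate and 79.3% ± 0.79 in severe mice. The other 6 members together summed to 46.4 ± 19.8 TPM in the controls, 44.4 ± 13.4 in moderate and 58.8 ± 8.54 in severe mice, which overlapped in their spread.

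**Figure D4:**
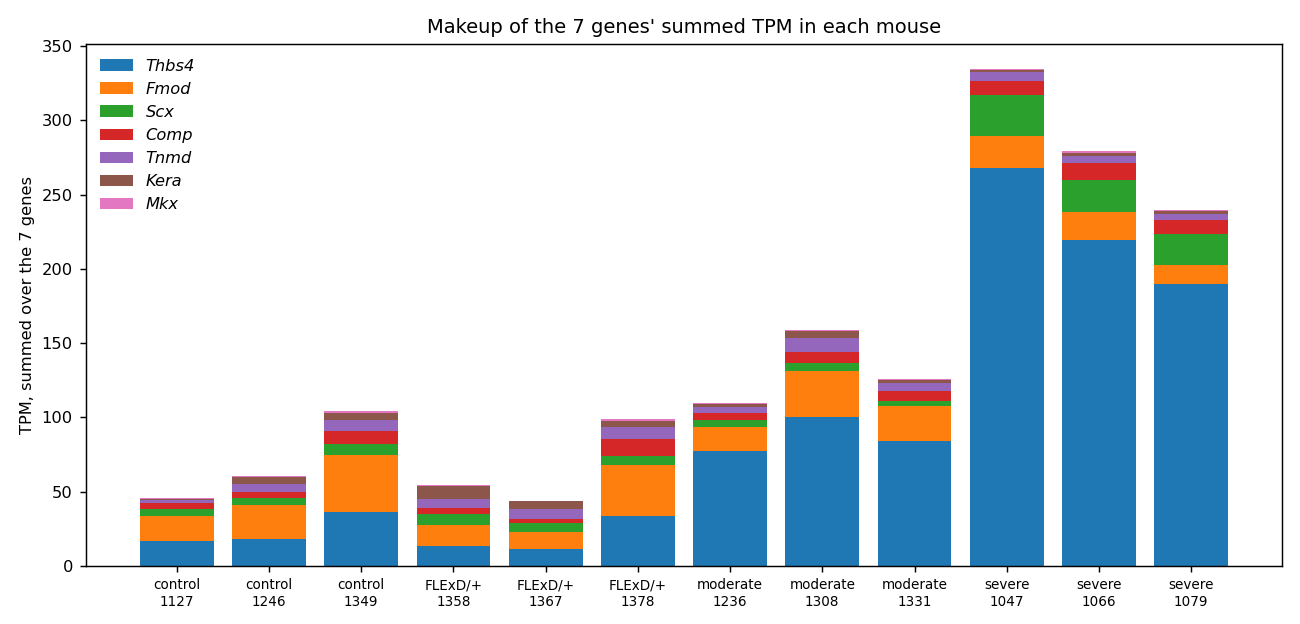
TPM of the 7 members stacked for each of the 12 mice, with the mouse number under each bar. Thbs4 takes a mean of 33.9% of the stack in the controls and 79.3% in severe mice.

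In the control, FLExD/+ and moderate groups, 1 mouse was highest, and another lowest, for most members. In the controls, mouse 1349 was highest for 6 of 7 members, all but Kera, and mouse 1127 was lowest for 6 of 7, all but Comp. In moderate mice, mouse 1308 was highest and mouse 1236 lowest for the 6 members other than Scx, for which mouse 1236 was the highest. In FLExD/+, mouse 1378 was highest and mouse 1367 lowest for Tnmd, Mkx, Fmod, Comp and Thbs4, and mouse 1378 was lowest for Scx and Kera. The control mice spread by 5.65 times for Kera, 4.04 times for Mkx and 3.58 times for Tnmd from lowest to highest, but by 1.53 times for Scx. In severe mice, mouse 1047 was highest for 5 of 7 members and lowest for Kera and Comp, and the lowest mouse differed by member. They were closer together, with a spread of 1.27 times for Tnmd and 1.195 times for Comp. How much tendon was dissected with each muscle was not recorded in the sources used here, and its part in these values was not tested.

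Among 13332 other genes tested with a mean of at least 1 CPM, Itga7 had the profile over the 12 mice most like that of Scx (Pearson r of log2 CPM = 0.966). Itga7 is a laminin-binding integrin chain on the junction list below. Nmral1 (0.943), Umps (0.942), Itch (0.922) and Rcbtb2 (0.915) followed. For Tnmd the most alike were Ing4 (0.952), Ptx4 (0.938), Crispld1 (0.924), the member Kera (0.921) and 2810453I06Rik (0.916). For Thbs4 they were Prg4, the lubricin gene of tendon and joint surfaces (0.984), Svep1 (0.981), Fam46a (0.981), Meg3 (0.98) and Col6a3, a collagen VI chain (0.979). The 12 points share their groups and their scaling, so these values describe the order of the groups and little else.

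Itga7 had the same order of groups as Scx. It was at 70.1, 75.8 and 81.4 CPM in the controls, 77.2, 79.7 and 79.2 in FLExD/+, 49.3, 50.1 and 41.2 in moderate and 134, 104 and 107 in severe mice. The moderate mice lay below and the severe mice above all others. The log2 fold change was -0.69 ± 0.11 in moderate and 0.61 ± 0.11 in severe mice, 0.49 without severe mouse 1047, and severe exceeded moderate by 1.30. Since Itga7 was picked for its likeness to Scx, these are descriptions without a test. The moderate value was -0.08 with library size alone, and in TPM the moderate mice, at 13.1 to 17.0, overlapped with the controls, at 16.1 to 19.5.

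Genes of the tendon matrix rose in most cases. This list and those below were chosen with earlier results of these data known, so their calls and adjusted p-values are not independent tests. Of the 20 on the list outside the members, 12 were called higher and 0 lower in moderate mice, with a median log2 fold change of 1.27 beside 0.04 for all genes tested. None was lower at an unadjusted p under 0.05, and DESeq2 and limma also called 0 lower. All genes tested had 24.4% called higher and 17% lower in moderate mice, and 32.9% and 27.9% in severe mice. In severe mice 13 of the 20 were called higher and 2 lower, with a median of 1.95 beside 0.08. The largest rises were those of Cilp, a matrix protein of cartilage and tendon, by 2.74 ± 0.16 in moderate and 3.81 ± 0.17 in severe mice (edgeR adjusted p = 1.3e-08 and 2.2e-10), and of Tnc, tenascin-C, by 2.60 ± 0.46 and 4.0 ± 0.48 (edgeR adjusted p = 9.9e-04 and 4.0e-05). The genes that fell in severe mice were Chad, the collagen-binding chondroadherin, at -2.70 ± 0.59 (edgeR adjusted p = 0.00208), and Dcn, the proteoglycan decorin, at -0.79 ± 0.12 (edgeR adjusted p = 2.9e-05). With library size alone Dcn was at 0.51, in the opposite direction, and Chad at -1.40; limma on TPM called neither. On the list, library size alone gave 16 higher and 0 lower in moderate and 18 higher and 1 lower in severe mice. On that scale 8764 of all 16679 genes tested were called higher in moderate and 12580 in severe mice. The list's medians there were 1.87 and 3.26, beside 0.65 and 1.39 for all genes. The summed level of the list, led by Col3a1, was 1830 ± 922 CPM in the controls, 4530 ± 255 in moderate and 8070 ± 1200 in severe mice. Of the type I collagen genes, Col1a1 was called in neither comparison, at 0.57 ± 0.74 in moderate and 1.75 ± 0.75 in severe mice. Col1a2 was not called in moderate mice, at 0.82 ± 0.53, and was called higher in severe mice, at 1.90 ± 0.54. Most genes of this list are made by other fibroblasts of muscle too.

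Genes of tendon regulators and signals were counted next. Of 25 listed, 21 were tested, and 6 were called higher and 7 lower in moderate and 7 higher and 6 lower in severe mice, with medians of 0.07 and 0.04. Over all genes tested 24.4% were higher and 17% lower in moderate and 32.9% higher and 27.9% lower in severe mice, so the severe counts were near those of all genes. With library size alone these counts were 13 higher and 2 lower in moderate and 16 higher and 2 lower in severe mice. On that scale 8764 of all 16679 genes tested were called higher and 752 lower in moderate mice, and 12580 and 1070 in severe mice. The list's medians there were 0.67 and 1.35, near the 0.65 and 1.39 of all genes. Tgfb1, the growth factor that induces matrix synthesis, rose by 2.08 ± 0.37 and 3.07 ± 0.35 (edgeR adjusted p = 2.9e-04 and 2.3e-06). Egr1, a zinc finger factor of tendon that responds to load, rose by 2.02 ± 0.36 and 1.57 ± 0.36 (edgeR adjusted p = 4.8e-04 and 0.00177). Mstn, the muscle-derived myostatin, fell the most, at -3.08 ± 0.31 and -4.59 ± 0.34 (edgeR adjusted p = 1.3e-05 and 4.0e-07). Smad3, a transducer of Tgfb signals, was at -1.65 ± 0.16 and -1.62 ± 0.16 (edgeR adjusted p = 2.0e-06 and 8.5e-07), though at -0.31 with library size alone and -0.36 with limma in severe mice, and called by neither. Tcf15, the basic helix-loop-helix factor closest to Scx, was at -1.29 ± 0.29 and -2.58 ± 0.31 (edgeR adjusted p = 0.00184 and 3.7e-06), the opposite of Scx in severe mice; with library size alone its moderate value was -0.68 and was not called. Gdf6 was called higher in severe mice (edgeR adjusted p = 0.00307), at 0.577 ± 0.0187 CPM against 0.0968 ± 0.0452 in the controls, a control level below that of 3 counts.

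Genes of the myotendinous junction, 15 tested, were called higher in 6 and lower in 7 cases in moderate mice, and in 4 and 5 cases in severe mice, with medians of 0.07 and 0.29. The counts with library size alone were 8 and 1 in moderate and 10 and 3 in severe mice. On that scale 8764 of all 16679 genes tested were called higher in moderate and 12580 in severe mice. The list's medians there were 0.67 and 1.60, beside 0.65 and 1.39 for all genes. With TMM factors, 24.4% of all genes tested were called higher and 17% lower in moderate mice, and 32.9% and 27.9% in severe mice. The severe junction counts with TMM factors were near these shares. Col22a1, the collagen of the junction itself, was at 25.1, 23.9 and 40.2 CPM in the controls, 10.8, 17.3 and 12.4 in moderate and 2.32, 2.83 and 2.63 in severe mice. These groups did not overlap in CPM, and the log2 fold changes were -1.14 ± 0.21 and -3.52 ± 0.24 (edgeR adjusted p = 5.5e-04 and 3.4e-08). In TPM the moderate mice, at 3.07 to 5.51, overlapped with the controls, at 4.97 to 8.97, and the moderate value was -0.54 with library size alone and -0.46, not called, with limma. Nrap, an anchoring protein of fiber ends, was at -0.95 ± 0.16 and -2.23 ± 0.16 (edgeR adjusted p = 1.4e-04 and 2.0e-08), and Dmd, dystrophin, at -1.10 ± 0.13 and -2.01 ± 0.14 (edgeR adjusted p = 1.0e-05 and 1.2e-08). The adult muscle fiber genes had medians of -1.44 and -3.68. Whether the falls of Nrap and Dmd belong to the junction or to whole fibers was not tested. With library size alone the moderate values of Nrap, -0.34, and Dmd, -0.50, were not called. The adhesion proteins Vcl, vinculin, and Tln1, talin, rose by 1.39 ± 0.12 and 0.74 ± 0.11 in moderate and by 1.33 ± 0.12 and 1.11 ± 0.11 in severe mice (edgeR adjusted p of at most 6.7e-05). Pdlim3 was higher in moderate mice, at 0.86 ± 0.25 (edgeR adjusted p = 0.011), a call that ended without control mouse 1127 (0.68) or 1246 (0.65), and was at -0.43 ± 0.25 and not called in severe mice (edgeR adjusted p = 0.136).

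**Figure D5:**
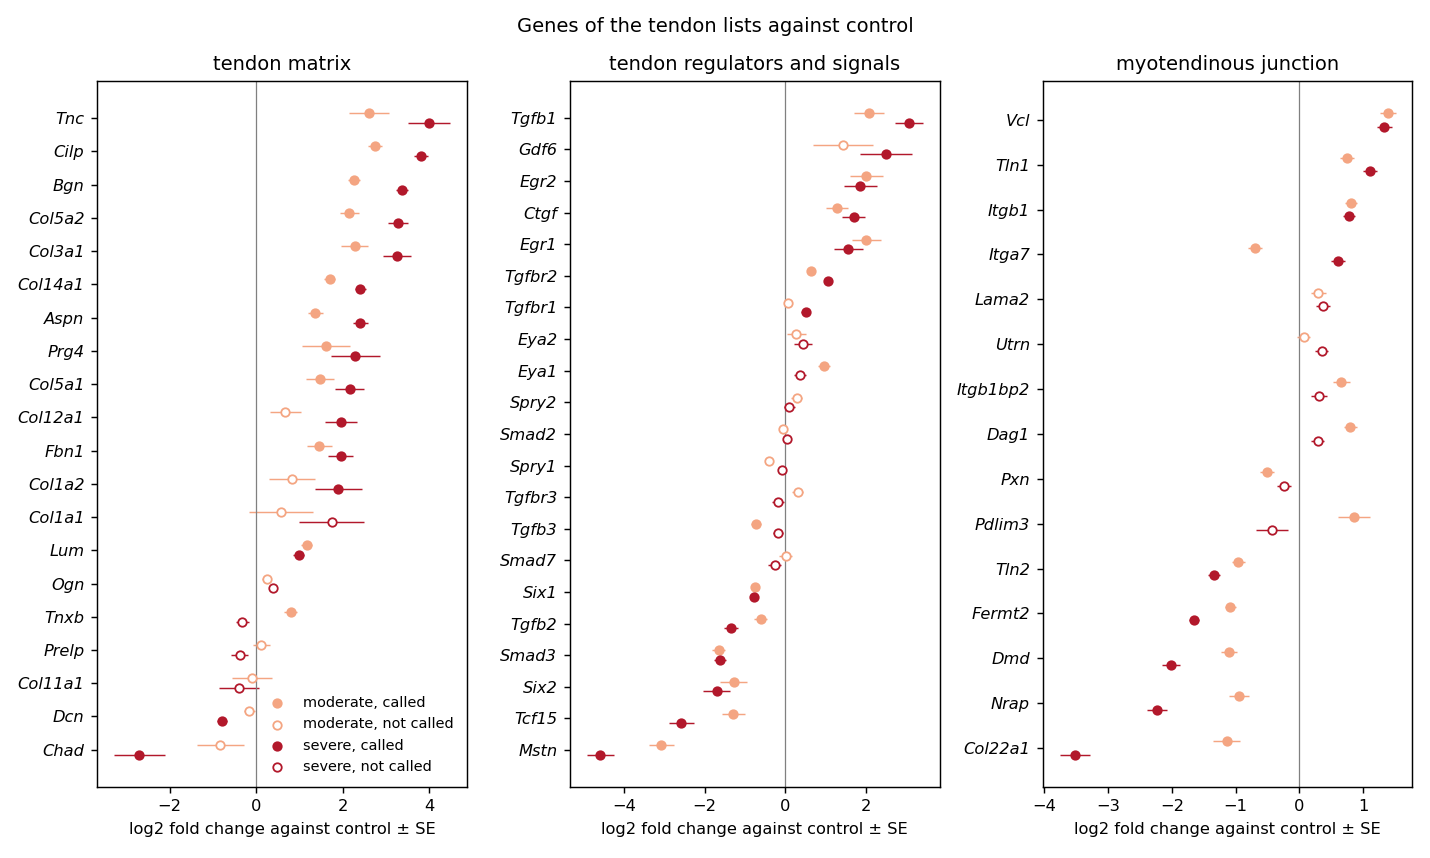
Log2 fold change (± SE) against control of the genes tested on the lists of tendon matrix, tendon regulators and signals, and myotendinous junction, in moderate and severe mice, with filled points for genes called by edgeR. Of the 20 matrix genes, 12 are called higher in moderate and 13 in severe mice; with library size alone Dcn lies at 0.51 in place of -0.79 in severe mice.

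Of 15 paralogs of the members in the count table, 9 passed the filter. They were called higher in 3 and lower in 1 in moderate mice, and in 5 and 2 in severe mice. The medians were 0.24 and 0.98, beside 0.04 and 0.08 for all genes tested. Of all genes, 24.4% were called higher and 17% lower in moderate mice, and 32.9% and 27.9% in severe mice. With library size alone the paralog counts were 6 and 0 and 8 and 1. On that scale 8764 of all 16679 genes were called higher in moderate and 12580 in severe mice. The thrombospondins Thbs1 and Thbs3 rose, Thbs1 by 1.51 ± 0.35 and 2.77 ± 0.36 (edgeR adjusted p = 0.00419 and 5.1e-05), and Thbs3 by 1.45 ± 0.12 and 1.73 ± 0.12 (edgeR adjusted p = 3.2e-07 and 1.5e-08). Omd, osteomodulin, a proteoglycan of the family of Fmod and Kera, was at -0.62 ± 0.26 in severe mice (edgeR adjusted p = 0.047). That call ended without control mouse 1127 (-0.57) or 1349 (-0.47), moderate mouse 1331 (-0.64) or severe mouse 1047 (-0.62), 1066 (-0.68) or 1079 (-0.57), with limma, with no filter and with at least 10 counts in every mouse, and with library size alone Omd was at 0.68, the opposite direction. Cartilage and bone genes, 9 of 14 tested, were called higher in 2 and lower in 3 in moderate mice and in 3 and 4 in severe mice. The medians were -0.41 and -0.10, beside 0.04 and 0.08 for all genes tested. The counts called higher were near the shares of all genes given above for the paralogs. The cartilage and bone counts were 3 and 2, and 4 and 3, with library size alone, and limma called 0 higher and 2 lower in moderate mice. With library size alone the list's medians were 0.19 and 1.18, beside 0.65 and 1.39 for all genes. Runx2, a factor of bone cells, rose by 1.97 ± 0.33 and 3.32 ± 0.31 (edgeR adjusted p = 1.9e-04 and 3.0e-07), and Sox9, which is shared by cartilage and tendon progenitors, by 1.57 ± 0.33 and 2.65 ± 0.31 (edgeR adjusted p = 0.00112 and 3.0e-06). With limma on TPM the moderate values of Runx2, 0.39, and Sox9, 0.45, were not called. Col9a1 fell by 3.37 ± 0.44 on the log2 scale in moderate mice (edgeR adjusted p = 1.8e-05), and was at 0.063 ± 0.0292 CPM in severe mice against 2.87 ± 1.00 in the controls. Sox6, which muscle fibers also express and which made up most of the list's level, was at -1.32 ± 0.13 and -2.91 ± 0.14 (edgeR adjusted p = 1.4e-06 and 3.8e-10). On the 12 lists together, none of the 129 genes tested was called between FLExD/+ and control mice by edgeR, DESeq2 or limma, and 7 had an unadjusted p under 0.05 in edgeR.

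Markers of other cells were followed as well. Beside the counts below, 24.4% of all genes tested were called higher and 17% lower in moderate mice, and 32.9% and 27.9% in severe mice. With library size alone, 8764 of all 16679 genes were called higher and 752 lower in moderate mice, and 12580 and 1070 in severe mice. The adult muscle fiber genes summed to 75800 ± 7620 CPM in moderate and 16100 ± 4540 in severe mice, and 10 and 12 of 12 were called lower. The 10 macrophage genes were all called higher in both groups, and summed to 119 ± 13.7 CPM in the controls, 627 ± 85.3 in moderate and 1350 ± 65.5 in severe mice, with Lyz2 the most abundant. Fibro-adipogenic progenitor genes, led by Gsn, summed to 1970 ± 216, 1820 ± 35.7 and 1130 ± 183 CPM, with 4 higher and 1 lower of 12 in moderate and 3 higher and 6 lower in severe mice. These counts with library size alone were 9 higher and 0 lower in moderate and 10 higher and 1 lower in severe mice. With limma they were 8 and 0, and 8 and 1. The balance in severe mice was thus reversed, but most of all 16679 genes were called higher there too, 12580 and 10687 on these scales. The list's severe medians were 0.84 and 0.75, below the 1.39 and 0.79 of all genes. Endothelial genes, led by Pecam1, were called lower in 4 of 8 in moderate and 7 of 8 in severe mice, and summed to 235 ± 14.9, 167 ± 21.1 and 115 ± 8.59 CPM. Schwann cell genes, led by Pmp22, had 1 higher and 1 lower of 8 in moderate and 5 lower in severe mice, at 48.3 ± 12.8, 62.2 ± 22.4 and 39.0 ± 4.69 CPM. Adipocyte genes, led by Fabp4, had 1 and 5 of 8 called lower, at 256 ± 14.1, 179 ± 51.3 and 122 ± 53.8 CPM. Of 8 epidermis genes 3 were tested, 2 called higher and 1 lower in both groups, and the list, led by Trp63, was at 10.2 ± 2.55, 38.9 ± 1.11 and 18.6 ± 2.83 CPM, with Krt5 and Krt1 at 0 in all groups. With library size alone 2 endothelial genes were called higher and 1 lower in severe mice, and 1 Schwann cell gene and 1 adipocyte gene each way, and in moderate mice 1 endothelial gene each way, 2 Schwann cell genes higher and 0 adipocyte genes. The epidermis genes called were 2 higher and 0 lower in both groups on that scale. The part of these shifts in the members' values was not tested.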

How the data were processed

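The authors mapped reads of 1 library per mouse with RSEM 1.2.4, modified to call Bowtie, on a merged annotation of mm10, and with TopHat 2.0.8b, and deposited expected counts and TPM per gene. Expected counts were rounded (31.8% to 36.2% were not whole) and tested in 1 fit of all 12 mice with edgeR 4.0.16 (filterByExpr, TMM, robust quasi-likelihood F-test; R 4.3.3; tables and figures with Python 3.11.15 and matplotlib 3.10.9), adjusting over 16679 genes. DESeq2 1.42.0, limma 3.58.1 on log2(TPM + 1) of the deposited TPM, other scalings and filters, pairs of groups alone and leaving out each mouse were alternatives. The SE is the absolute log2 fold change over the root of F. Positions are from GENCODE M21 (GRCm38), which held 35982 of 37748 identifiers. Members and lists were chosen with earlier results of these data known. From the 5 tendon-related lists, the 2 called genes with the largest rise and fall per comparison, and those called in opposite directions, were named. Tnxb was named after its values were seen, and so were Col1a1 and Col1a2, as the type I collagen genes. For Scx, Tnmd and Thbs4 the 5 most alike genes were named. Scripts were tested on simulated data. Replicate libraries differed beyond sampling noise (chi-square per degree of freedom of 18.7 to 104). Intervals cover the spread between mice only.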

Additional observations from a re-analysis of the deposited data

Results flagged for a closer look

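Scx lay below every control in all 3 moderate mice and above every control in all 3 severe mice. Its severe level exceeded its moderate level by 1.61 on the log2 scale (2.31 with library size alone and 2.11 with limma), a difference that was not tested, since the members were chosen on it. Itga7, picked for its likeness to Scx, had the same pattern in every mouse, with a difference of 1.30, given without a test. Tnxb, tenascin-X, was picked after its values were seen, so its values are given without a test. It was at 125, 132 and 150 CPM in the controls, at 190, 273 and 244 in moderate and at 111, 115 and 101 in severe mice, a difference of -1.11 between severe and moderate mice. The FLExD/+ mice, at 78.0, 87.2 and 111 CPM of Tnxb, overlapped with the severe mice. In TPM, Tnxb was at 9.37 to 13.3 in the controls, 21.4 to 33.4 in moderate and 17.0 to 23.7 in severe mice, so that severe and moderate mice overlapped and both lay above the controls. Its place below the controls and below the moderate mice thus depends on the scaling. The moderate place of Scx and Itga7 below the controls is likewise lost in TPM, in which moderate and control mice overlap.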

How the results depend on the processing

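No paired analysis was possible because the groups share no replicate numbers. With median-of-ratios factors, DESeq2, either filter or only the groups compared, every member's value moved by less than 1 SD, and so did all 84 values with a mouse left out in each comparison. Under library size alone and limma on log2(TPM + 1) no value moved by that much between FLExD/+ and control mice, and in moderate mice those of Tnmd, Mkx and Kera did not. All 14 values between severe and moderate mice did. In moderate mice these gave, in that order, -0.25 and -0.31 for Scx, 0.00 and -0.08 for Fmod, 0.25 and 0.16 for Comp, and 2.0 and 1.91 for Thbs4. In severe mice Tnmd was reversed at 0.14 and 0.15. Comp also changed direction, from -0.31 to 0.99 and 0.84. Scx was at 2.06 and 1.80, Mkx at -0.19 and -0.02, and Kera at -0.91 and -0.53. Fmod was at -0.42 and -0.43, and Thbs4 at 3.35 and 3.26. These scalings do not correct for the makeup of a library. Between FLExD/+ and control mice 7 genes were called by DESeq2, 2 by limma, 0 with only the 2 groups compared, and 1 to 2 with a mouse left out, against 1. At a log2 threshold of 1, 3820 genes were called in moderate mice against 6902, and 2747 between severe and moderate mice against 6082, which library size alone raised to 10471. Of all 16679 genes tested, library size alone called 8764 higher and 752 lower in moderate mice, and 12580 and 1070 in severe mice. Limma called 5257 and 737 in moderate mice, and 10687 and 987 in severe mice. The list counts below shift beside these. Tendon matrix genes called lower in severe mice were 1 with library size alone, 0 with limma and 1 at a threshold of 1. Regulators called higher were 13 with library size alone in moderate mice, and 16 with it and 15 with limma in severe mice. Regulators called lower were 2 with library size alone, 3 with limma and 4 at a threshold of 1 in moderate mice, and 2 with either scaling in severe mice. Junction genes called higher were 1 at a threshold of 1 in moderate mice, and 10 with either scaling and 2 at a threshold of 1 in severe mice. Junction genes called lower were 1 with library size alone, 2 with limma and 3 at a threshold of 1 in moderate mice, and 3 with either scaling in severe mice. The cause was not tested. The lowest count of a member was 17, for Mkx in control mouse 1127.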
